A study of Arabidopsis thaliana with 18 samples.

Results

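Histone H3 messenger RNA was followed through 10 genes in whole embryos of Arabidopsis thaliana, the thale cress, from the 2/4-cell to the heart stage. The genes were picked by identifier from the 27564 genes of the table, by a rule that names no value, though with earlier results of these data known. They were 5 genes for H3.1, which are HTR1 (AT5G65360), HTR2 (AT1G09200), HTR3 (AT3G27360), HTR9 (AT5G10400) and HTR13 (AT5G10390), and 3 genes for H3.3, which are HTR4 (AT4G40030), HTR5 (AT4G40040) and HTR8 (AT5G10980). The last 2 were MGH3 (AT1G19890), an H3 gene of the male germline, and CENH3 (AT1G01370), also called HTR12. The study profiled 6 stages with 3 libraries each: 2/4-cell, 8-cell, 16-cell and 32-cell embryos, then globular and heart embryos. All plants had been kept at 22 °C under 16 h of light and 8 h of dark, embryos were dissected by hand, and the labels name no accession, mutant or treatment. RNA was read in bulk, so fewer cells of a type and less RNA per cell cannot be told apart.

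Chromatin wraps DNA around octamers of the histones H2A, H2B, H3 and H4. H3.1 is placed mainly behind the replication fork by the CAF-1 complex, and its genes are known to be transcribed mostly in S phase. H3.3 is placed outside replication as well, largely at transcribed genes and through chaperones such as HIRA, and its genes are transcribed through the whole cell cycle. CENH3 replaces H3 at centromeres, where the kinetochore is built, and in plants it is loaded mainly in G2. MGH3 is known from sperm cells of the pollen grain.

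The H3.1 and H3.3 genes encode nearly the same protein from different DNA, which bears on how well their transcripts can be told apart. Every coding sequence of the 8 genes had 411 bases, stop codon included. Pairs of H3.1 genes were 80.3% to 89.5% identical in these bases and differed in 0 residues once translated. Pairs of H3.3 genes were 78.6% to 88.8% identical, again with 0 residues differing. H3.1 and H3.3 genes were 74.0% to 80.3% identical and differed in 4 residues, at codons 31, 41, 87 and 90, counted without the start codon. MGH3 shared 90.4% of its residues with HTR2 in an alignment, and CENH3 shared 54.5%. Codons 84 to 93 are shown for the 8 genes because they hold the pair of class codons nearest to each other. Capitals mark codons 87 and 90, and sequences are the coding strand, 5′ to 3′, from RefSeq, TAIR10.1.
HTR1: ttccagagcAGCgccgtcGCAgcacttcag
HTR2: ttccagagcAGTgccgtcGCCgctcttcag
HTR3: tttcagagtAGTgcagtcGCAgctcttcaa
HTR9: ttccagagcAGTgccgtcGCAgctcttcag
HTR13: tttcagagcAGTgctgttGCTgctttacaa
HTR4: ttccagagcCATgctgtcTTAgctctccag
HTR5: ttccagagcCATgctgtgCTTgcactccag
HTR8: tttcagagtCACgcggtgTTAgctcttcaa
In capitals, the H3.1 genes hold 1 residue and the H3.3 genes another at each of these codons, while the lower-case bases differ between genes of the same class without changing the protein. Of all 31-base words in the annotated transcripts of a member, 95.1% to 100% occurred in no other gene, except for HTR3 with 61.9%. HTR3 overlaps AT3G27380 (SDH2-1, a subunit of succinate dehydrogenase) on the same strand and shares 37.1% of its words with it. SDH2-1 itself went from 37.7 ± 7.35 TPM at the 2/4-cell stage to 83.1 ± 9.69 at the globular stage (SD, n = 3), so the level of HTR3 is uncertain by what the quantification assigned to each.

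Promoters were read because H3.1 genes are known to be transcribed together. The window was the 250 bases before the annotated gene start. The octamer CGCGGATC, a motif described in plant histone promoters and searched on both strands, was in 37 of 27443 promoters, or 0.135%. It was in 4 of the 10 windows, those of HTR1, HTR2, HTR9 and HTR5, and HTR2 had it 2 times. These windows lie at chr5:26120582-26120831, chr1:2972335-2972584, chr5:3270958-3271207 and chr4:18558946-18559195 of TAIR10.1, all of genes on the minus strand. They are printed 5′ to 3′ along the gene, with the octamer in capitals on either strand and, in HTR9, the hexamer ACGTCA on the opposite strand as well.
HTR1: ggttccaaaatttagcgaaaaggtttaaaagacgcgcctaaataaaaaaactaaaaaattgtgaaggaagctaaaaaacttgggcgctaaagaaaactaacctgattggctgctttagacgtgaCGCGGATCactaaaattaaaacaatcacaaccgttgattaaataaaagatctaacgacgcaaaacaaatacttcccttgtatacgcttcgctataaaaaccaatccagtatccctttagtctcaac
HTR2: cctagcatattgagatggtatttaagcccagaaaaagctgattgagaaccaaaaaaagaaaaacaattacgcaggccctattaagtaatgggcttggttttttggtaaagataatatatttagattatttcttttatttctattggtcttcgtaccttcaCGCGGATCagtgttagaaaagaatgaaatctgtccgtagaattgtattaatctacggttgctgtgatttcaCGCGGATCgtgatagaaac
HTR9: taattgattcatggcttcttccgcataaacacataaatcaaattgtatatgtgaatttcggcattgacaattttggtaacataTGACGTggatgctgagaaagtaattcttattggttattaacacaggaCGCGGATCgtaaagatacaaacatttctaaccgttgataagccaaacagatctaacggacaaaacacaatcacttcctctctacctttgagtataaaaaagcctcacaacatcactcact
HTR5: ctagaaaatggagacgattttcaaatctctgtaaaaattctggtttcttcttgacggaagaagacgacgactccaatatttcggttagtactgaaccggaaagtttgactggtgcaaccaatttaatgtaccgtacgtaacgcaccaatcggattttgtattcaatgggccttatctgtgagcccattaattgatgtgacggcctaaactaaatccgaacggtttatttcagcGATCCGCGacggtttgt
The octamer nearest to the start was 10 bases from it in HTR5, on the opposite strand, and 12 bases in HTR2, while those of HTR9 and HTR1 lay 113 and 119 bases away. The hexamer ACGTCA was in 7.69% of all promoters and in those of HTR3, HTR9, HTR8 and MGH3. TATAAA, like the other words searched on both strands, was in 47.3% of all promoters, in 4 of the 5 H3.1 windows and in 0 of the 3 H3.3 windows. It lay 30, 26 and 24 bases from the start in HTR1, HTR3 and HTR9, on the strand of the gene. In HTR13 it lay 108 bases away, on the opposite strand. AACGG, the core of a motif of genes active in mitosis, was in 20.6% of all promoters and in 6 of the 10 windows, 4 of them of H3.1 genes. The nonamer CATCCAACG, in 0.149% of all promoters, and the E2F words TTTCCCGC and TTTGGCGC, in 0.958%, were in 0 of the 10. Among other histone genes the octamer was in 2 of 8 H4 promoters and in 2 of 4 canonical H2A promoters, and the hexamer was in 8 of 11 H2B promoters. Words can match by chance, the window of HTR3 lies within SDH2-1, and that of HTR4 lies mostly within HTR5, its neighbour on chromosome 4. HTR9 and HTR13 are neighbours on chromosome 5.

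Values are TPM, a transcript's share of its library, corrected for transcript length and scaled to the same total in each library. Levels of different genes are set side by side on this basis, though the share of short transcripts differed between libraries, as given below. Means are given ± SD over 3 libraries, and the depth behind them is unknown because the table holds no counts. Within a stage, log2(TPM + 1) of 2 libraries correlated at 0.884 to 0.981 across all genes. The 5 embryo markers LEC1, WOX2, WOX8, DRN and ATML1 were above 0 in all 18 libraries, WOX8 with 0.296 TPM in its lowest. Being above 0 was not particular to them, since the seed coat markers TT3, BAN, TT4 and TT5 were so as well. The seed coat markers summed to 330 to 1234 TPM at the 2/4-cell stage, 231 TPM in 32-cell replicate 2 and at most 58.1 TPM in every other library. Of the 6 seed coat markers, TT10 was listed at 0 in 11 libraries. Pollen and sperm markers summed to 42.5 to 184 TPM at the 2/4-cell stage and 10.5 to 26.6 TPM in the other libraries, and endosperm markers reached 46.5 TPM in 2/4-cell replicate 3 and at most 1.91 TPM elsewhere.

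The 8 H3.1 and H3.3 genes were abundant at every stage. Over all 18 libraries the mean was 921 TPM for HTR5 and 832 TPM for HTR8, the highest of the 10 genes. HTR2 followed with 572 TPM, HTR9 with 508 TPM and HTR13 with 477 TPM. HTR1 with 357 TPM, HTR3 with 346 TPM and HTR4 with 339 TPM had overlapping ranges over the libraries. CENH3 was lower with 114 TPM. By its stage mean HTR5 ranked between 134th and 185th of all genes, and HTR3 between 296th and 567th. Together H3.1 and H3.3 took 0.435 ± 0.0612% of all TPM (SD, n = 18 libraries of 6 stages). MGH3 was listed at 0 in 15 of 18 libraries, among them all 3 of the 2/4-cell stage, where the sum of pollen and sperm markers was highest. Of the 8 pollen and sperm markers, DUO1, DAZ1, GCS1 and GEX2 had means of 0, 0.0276, 2.68 and 8.13 TPM at that stage. Each of these was below the mean of the same gene at another stage. The markers AGP6, AGP11 and VGD1 went the other way, with their highest values, 30.4, 92.8 and 54.3 TPM, at the 2/4-cell stage. DAZ2 had at most 0.238 TPM in any library. The 3 MGH3 values above 0 were 0.762 TPM in 32-cell replicate 3, 0.469 TPM in globular replicate 2 and 0.111 TPM in globular replicate 3. MGH3 was therefore not tested, and the other 9 genes were.

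**Figure D1:**
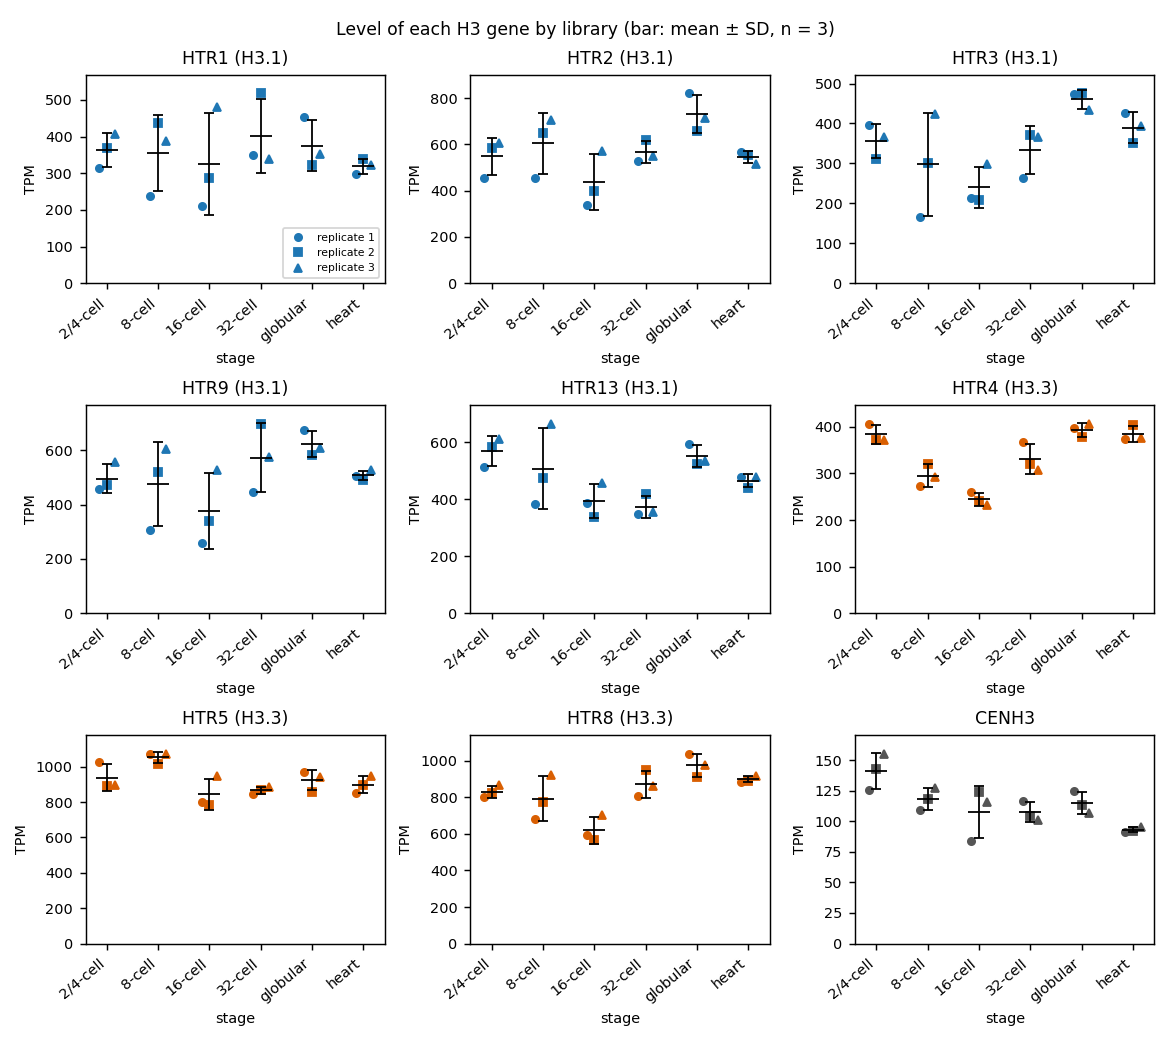
TPM of 9 H3 genes (y axis, linear from 0, scaled for each gene) at the 6 stages (x axis). Points are libraries, their shape the replicate, and bars are the mean ± SD of 3. On TPM as deposited HTR4 and HTR8 are lowest at the 16-cell stage, the H3.1 genes spread widely at the 8-cell and 16-cell stages, and CENH3 is lowest at the heart stage, with a mean of 92.97 TPM.

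Summed over its 5 genes, H3.1 was close to H3.3 at every stage. The H3.1 sum was 2333 ± 206 TPM at the 2/4-cell, 2240 ± 631 at the 8-cell, 1772 ± 497 at the 16-cell and 2248 ± 348 at the 32-cell stage (SD, n = 3 libraries). It was 2740 ± 243 TPM at the globular and 2226 ± 55.4 TPM at the heart stage. The 3 H3.3 genes summed to 2153 ± 75.9 TPM at the 2/4-cell, 2141 ± 135 at the 8-cell, 1709 ± 155 at the 16-cell and 2071 ± 60.0 at the 32-cell stage. They summed to 2294 ± 133 TPM at the globular and 2182 ± 67.1 TPM at the heart stage. On TPM as deposited both sums had their lowest stage mean at the 16-cell stage and their highest at the globular stage, an order that rests on the scaling of the libraries. Under median-ratio scaling both were highest at the 2/4-cell stage, with 2661 TPM for H3.1 and 2452 TPM for H3.3, and lowest at the heart stage, with 1805 and 1773 TPM. On TPM as deposited the 16-cell H3.1 sums, at 1406, 1571 and 2338 TPM, overlapped those of the 2/4-cell, 8-cell and 32-cell stages. For H3.3 the 16-cell libraries, at 1589 to 1883 TPM, all lay below the 2022 TPM that was the lowest value of any other stage.

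The H3.1 share of H3.1 plus H3.3 TPM is not changed by a scaling factor for each library. It was 51.9 ± 2.83% at the 2/4-cell, 50.4 ± 6.22% at the 8-cell and 50.4 ± 4.75% at the 16-cell stage. It was 51.9 ± 3.1% at the 32-cell, 54.4 ± 1.24% at the globular and 50.5 ± 1.21% at the heart stage. The lowest share of any library was 43.3%, in 8-cell replicate 1, and the highest was 55.6%, in globular replicate 1. Stage means thus spanned less than the 3 libraries of the 8-cell stage did. The globular libraries, at 53.2% to 55.6%, lay above the heart libraries, at 49.7% to 51.9%, and no others were apart from the next stage. Per TPM of the 8 H4 genes, H3.1 stood at 0.880 to 0.983 in the stage means. The longest annotated H3.1 transcripts are shorter than those of HTR4 and HTR5. The part of transcript length in the H3.1 share was not tested.

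**Figure D2:**
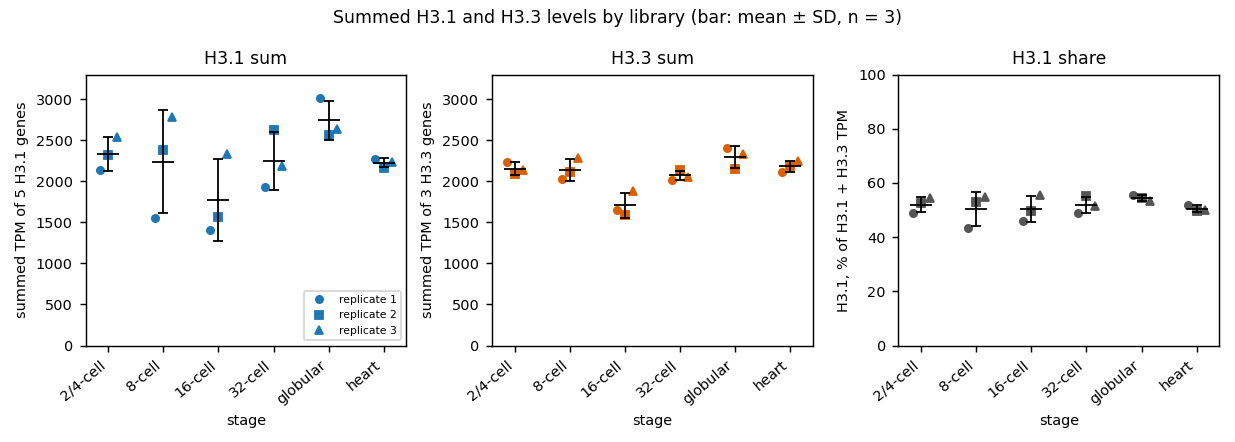
Summed TPM of the 5 H3.1 genes and of the 3 H3.3 genes (linear y axes with the same limits) and the H3.1 share of both in percent, by stage. Points are libraries and bars the mean ± SD of 3. The share lies between 43.3% and 55.6% in every library.

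The 5 H3.1 genes did not keep fixed shares of their sum. HTR13 made 24.4 ± 0.619% of it in 2/4-cell, 16.7 ± 1.05% in 32-cell and 20.9 ± 0.575% in heart embryos. The 32-cell libraries, at 16.0% to 17.9%, lay below all libraries of the other stages for this gene. HTR2 held 23.4% to 27.4% and HTR9 20.8% to 25.3% in the stage means. HTR1 held 13.6% to 17.9%, and HTR3 12.9% to 17.5%. Among H3.3 genes, HTR5 made 49.3 ± 3.16% of the sum at the 8-cell and 49.3 ± 0.902% at the 16-cell stage, against 43.5 ± 2.07% before and 40.3% to 41.9% after. All 8-cell and 16-cell libraries lay above all others, at 46.9% to 52.9%. HTR8 went from 36.3 ± 1.004% at the 16-cell to 42.5 ± 0.541% at the globular stage, with no overlap between their libraries, and HTR4 held 13.8% to 17.8%. These shares are descriptions with no test.

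**Figure D3:**
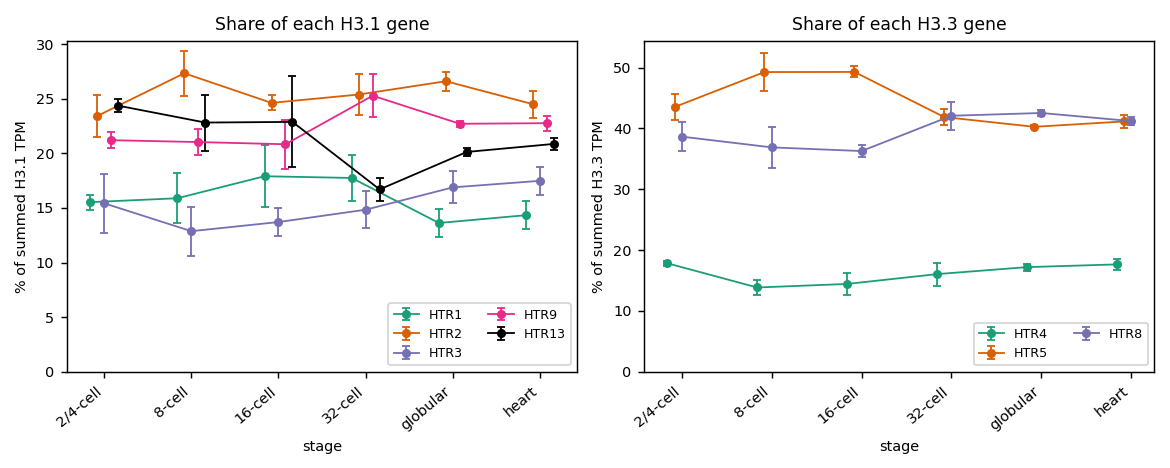
Share of each gene in the summed TPM of its class, in percent (y axis, linear from 0), by stage, as mean ± SD of 3 libraries. HTR13 is lowest at the 32-cell stage with 16.7%, and HTR5 is highest at the 8-cell and 16-cell stages with 49.3%.

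Consecutive stages, and heart against 2/4-cell, were compared by limma on log2(TPM + 1) of all 18338 genes tested. A gene was called at a Benjamini-Hochberg adjusted p under 0.05 over all of them. Of 54 changes tested in the 9 genes, 4 were called. Of all genes, 0.578% were called in heart against globular and 46.9% in heart against 2/4-cell, with the other comparisons between. The count of 4 is thus no result about H3 genes. The share of all genes at an unadjusted p under 0.05 is not given here. Counts at that level, given below, are thus no result about H3 genes either. The moderated F test over the 6 stages called 5 of the 9, where 49.1% of all genes were called. These were the H3.1 genes HTR2, HTR3 and HTR13 (limma adjusted p = 0.0397, 0.0273 and 0.0187) and the H3.3 genes HTR4 and HTR8 (adjusted p = 0.000315 and 0.00439). The share is near the background, so it is no result about H3 genes. Under median-ratio scaling of the libraries HTR4, HTR8, HTR2 and HTR3 all lost the F call (limma adjusted p = 0.0576, 0.447, 0.335 and 0.463), while HTR13 kept it. With no filter on low values HTR2 and HTR3 lost it as well (adjusted p = 0.0815 and 0.0709). HTR4 and HTR8 kept it without any 1 library. HTR13 lost it without 32-cell replicate 1 (adjusted p = 0.0523), its 1 loss among 26 alternatives, and HTR3 without 16-cell replicate 1 or 2 or globular replicate 1 or 2 (adjusted p = 0.0625 to 0.0788). HTR2 lost it in 11 of the 18 fits that left out 1 library, the highest adjusted p of these being 0.121, without globular replicate 1.

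HTR4 had the lowest F test p of the 9 genes. It stood at 407, 372 and 372 TPM in the 2/4-cell libraries, at 273, 321 and 293 TPM in the 8-cell and 261, 240 and 233 TPM in the 16-cell libraries. The 32-cell libraries had 368, 319 and 307 TPM, the globular ones 398, 377 and 406, and the heart ones 373, 404 and 376. The libraries of each stage up to the globular stage did not overlap with those of the stage before. The same held in the same direction for 9.3% of all genes at the 8-cell stage and 21.6% at the 32-cell stage, and for the shares given below for the other steps. HTR4 fell from the 2/4-cell to the 8-cell stage by 0.38 on the log2 scale (SE 0.12, limma adjusted p = 0.0495), where 8.77% of all genes were called and 5% were called lower. That call stood at the threshold: it was kept in 6 of 27 alternatives and lost in 15 of the 18 that left out 1 library, with adjusted p up to 0.178, without 8-cell replicate 1. With library weights its adjusted p was 0.300. HTR4 rose from the 16-cell to the 32-cell stage by 0.43 on the log2 scale (SE 0.12, limma adjusted p = 0.0313), where 6.06% of all genes were called and 5.37% were called higher.

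HTR8, the other H3.3 gene called, rose in the same step by 0.49 on the log2 scale (SE 0.13, limma adjusted p = 0.0240), a 1.41-fold change. Its 16-cell libraries had 593, 565 and 705 TPM and its 32-cell libraries 806, 952 and 860 TPM, with no overlap. The median of all tested genes moved by 0.24 in this comparison, and both changes were larger than that shift. Under median-ratio scaling, where the median moved by 0.03, the changes were 0.17 for HTR4 and 0.23 for HTR8 (limma adjusted p = 0.633 and 0.601), and neither was called. HTR4 also lost the call without 16-cell replicate 2 or 3 or 32-cell replicate 1 or 2 (adjusted p = 0.0648 to 0.177). HTR8 lost it without 16-cell replicate 1 or 2 or 32-cell replicate 2 or 3 (adjusted p = 0.0644 to 0.108). HTR5, the third H3.3 gene, had 801, 783 and 946 TPM and then 847, 867 and 887 TPM, a log2 change of 0.04 (95% interval -0.19 to 0.28).

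In the same step 0 of the 5 H3.1 genes were called by limma, though HTR2 and HTR9 had an unadjusted p under 0.05. HTR9 stood at 258, 339 and 529 TPM at the 16-cell stage and at 446, 697 and 574 TPM at the 32-cell stage, and the libraries overlapped. Its log2 change was 0.65 (SE 0.24, limma adjusted p = 0.126), the largest of the 9 genes in this comparison. It was called without 16-cell replicate 3 (log2 change 0.93, limma adjusted p = 0.0282). HTR13 had 388, 338 and 458 TPM and then 347, 419 and 355 TPM, a log2 change of -0.07 (95% interval -0.42 to 0.28).

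**Figure D4:**
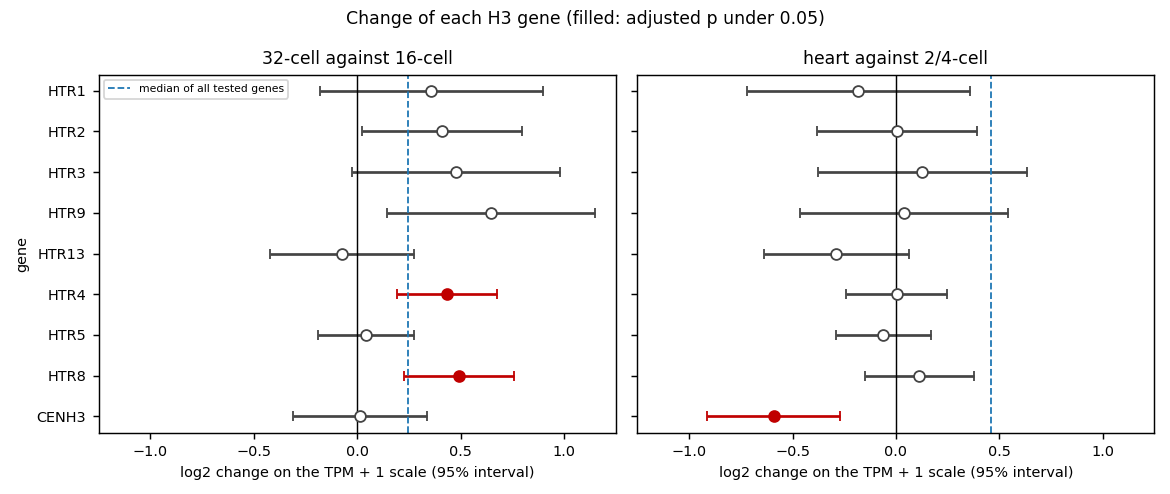
Log2 change of each H3 gene on the TPM + 1 scale (x axis, 95% interval from limma) for 32-cell against 16-cell and heart against 2/4-cell. Filled points were called, and the dashed line is the median of all tested genes, at 0.24 and 0.46. HTR4 and HTR8 are called in the first comparison and CENH3 in the second.

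In 16-cell against 8-cell 0 of the 9 genes were called by limma, where 1.56% of all genes were called at the same adjusted threshold. At an unadjusted p under 0.05 there were 4, with no share of all genes to set beside them. These 4 were HTR2, HTR4, HTR5 and HTR8, with log2 changes of -0.48, -0.27, -0.32 and -0.35. The 16-cell libraries lay below the 8-cell libraries without overlap for HTR4 and HTR5, as for 7.27% of all genes. HTR5 had 1071, 1014 and 1073 TPM at the 8-cell stage and 801, 783 and 946 TPM at the 16-cell stage. HTR2 had 456, 650 and 706 TPM and then 338, 399 and 572 TPM, and those libraries overlapped.

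In globular against 32-cell 0 of the 9 genes were called by limma, where 1.94% of all genes were called, and 2 had an unadjusted p under 0.05, HTR13 and HTR4. HTR13 stood at 347, 419 and 355 TPM in the 32-cell libraries and at 594, 525 and 534 TPM in the globular ones. Its log2 change was 0.56 (SE 0.17, limma adjusted p = 0.0970). It was called with library weights, with quantile normalization, with only these 2 stages in the fit, and without 8-cell replicate 3 (adjusted p = 0.00131 to 0.0454). The globular libraries were above the 32-cell libraries without overlap for HTR2, HTR3, HTR13 and HTR4, where 24.8% of all genes were. HTR2 went from 530, 618 and 552 TPM to 820, 656 and 716 TPM, and HTR3 from 264, 371 and 366 TPM to 474, 475 and 434 TPM.

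In heart against globular 0 of the 9 genes were called by limma, where 0.578% of all genes were called, and 1 had an unadjusted p under 0.05, HTR2. The heart libraries were below the globular libraries without overlap for HTR2, HTR3, HTR9, HTR13 and CENH3, where 5.61% of all genes were. HTR2 had 568, 552 and 517 TPM at the heart stage, a log2 change of -0.42 from the globular stage (SE 0.18, limma adjusted p = 0.832). HTR9 went from 676, 584 and 607 TPM to 506, 489 and 525 TPM, with a log2 change of -0.29 (limma adjusted p = 1). The H3.3 genes overlapped between these stages, with log2 changes of -0.03 for HTR4, -0.04 for HTR5 and -0.12 for HTR8.

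CENH3 was the gene of the 9 called between the heart and the 2/4-cell stage. Its libraries had 125, 143 and 155 TPM at the 2/4-cell, 109, 118 and 127 at the 8-cell and 83.9, 124 and 115 at the 16-cell stage. They had 117, 105 and 101 TPM at the 32-cell, 124, 113 and 107 at the globular and 91.5, 92.1 and 95.3 TPM at the heart stage. The heart libraries lay below every other library except 16-cell replicate 1, and neighbouring stages overlapped up to the globular stage. CENH3 fell by 0.59 on the log2 scale from the 2/4-cell to the heart stage (95% interval -0.91 to -0.27, limma adjusted p = 0.00427), to 0.664 of its first level, where 46.9% of all genes were called and 12.3% were called lower. It was called in all 27 alternatives, with adjusted p between 0.000195 and 0.0201. No consecutive step of CENH3 was called by limma (adjusted p = 0.373 to 1, and 0 with an unadjusted p under 0.05). Its F test missed the threshold (adjusted p = 0.0561), but this miss depended on the processing. The F test called CENH3 in 8 of 26 alternatives, 4 of them among the 18 without 1 library. Over the 26 its limma F test adjusted p ran from 0.00229 to 0.158.

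The median of all tested genes moved by 0.46 between these stages. Under median-ratio scaling, where it moved by 0.03, CENH3 fell by 1.08 (limma adjusted p = 0.000195), and with quantile normalization it fell by 0.74 (adjusted p = 0.00158). Within the 2/4-cell stage the order of the 3 CENH3 values was that of the seed coat marker sums, which were 330, 757 and 1234 TPM. This order was not particular to CENH3: the H3.1, H4 and canonical H2A sums had it as well, and the H3.3 and H2B sums did not. Without 2/4-cell replicate 3, the library with the most seed coat and endosperm marker TPM, the fall of CENH3 was 0.52 (limma adjusted p = 0.0201). The part of seed coat RNA in the level at the 2/4-cell stage was not tested. As a share of H3.1 plus H3.3 TPM, CENH3 went from 3.14 ± 0.236% to 2.11 ± 0.0218% between these stages, with no overlap.

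For the H3.1 and H3.3 genes, heart against 2/4-cell depended on the scaling. On TPM as deposited their log2 changes ran from -0.29 for HTR13 to 0.13 for HTR3, and 0 of 8 were called by limma, with 0 at an unadjusted p under 0.05. HTR13, at 512, 582 and 612 TPM and then 479, 439 and 477 TPM, and HTR8, at 803, 824 and 867 TPM and then 887, 892 and 919 TPM, did not overlap between the stages. Of all genes, 13.8% were lower and 39.2% higher at the heart stage without overlap, shares no smaller than those among these 8 genes. Under median-ratio scaling all 8 changes were negative, and HTR13, HTR4 and HTR5 were called lower, with log2 changes of -0.78, -0.48 and -0.55 (limma adjusted p = 0.00923, 0.0223 and 0.0246). With quantile normalization HTR5 and HTR8 were called higher, at 0.26 and 0.43 (limma adjusted p = 0.0415 and 0.00448). The direction for HTR5 was thus opposite under these scalings, and no direction is given for the H3.1 and H3.3 genes over the whole series.

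The libraries of a stage differed more for H3.1 than for H3.3. The within-stage SD of log2(TPM + 1) was 0.209 for HTR13, 0.243 for HTR2 and 0.337 to 0.366 for HTR9, HTR3 and HTR1. It was 0.0936 for HTR4, 0.0940 for HTR5, 0.132 for HTR8 and 0.157 for CENH3. The median over 1572 genes of 100 TPM or more was 0.228. In 8-cell replicate 1 the H3.1 sum was 1549 TPM against 2383 and 2787 TPM in the other 8-cell libraries, while H3.3 stood at 2026, 2108 and 2289 TPM. In 16-cell replicate 3 it was 2338 TPM against 1406 and 1571 TPM.

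Deviations from the stage mean, over the 18 libraries, were set side by side to see which genes moved with each other within stages. They are given with no p, and all genes share the libraries and their scaling. The 10 pairs of H3.1 genes had r of 0.605 to 0.921 (median 0.804). HTR8, an H3.3 gene, had r of 0.774 to 0.946 with the H3.1 genes, while HTR5 had 0.224 to 0.358 and HTR4 had -0.218 to -0.048. The H3.1 sum had r of 0.917 with the H4 genes, 0.931 with canonical H2A, 0.936 with H2B and 0.883 with the H2A variants. Without the 2 libraries farthest from the median of the H3.1 deviations these were 0.848, 0.891, 0.880 and 0.797. For the genes of H3 deposition r was -0.738, for the mitosis list -0.720, for the S phase list -0.569 and for the seed coat markers 0.585. Without those libraries they were -0.615, -0.566, -0.346 and 0.656. The H3.3 sum had r of 0.736 with the H3.1 sum, and 0.602 without those libraries. Over 18329 tested genes outside the 9 the median r with the H3.1 sum was -0.131, with quartiles of -0.413 and 0.173. Within stages the H3.1 sum thus ran with the sums of the other core histones.

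**Figure D5:**
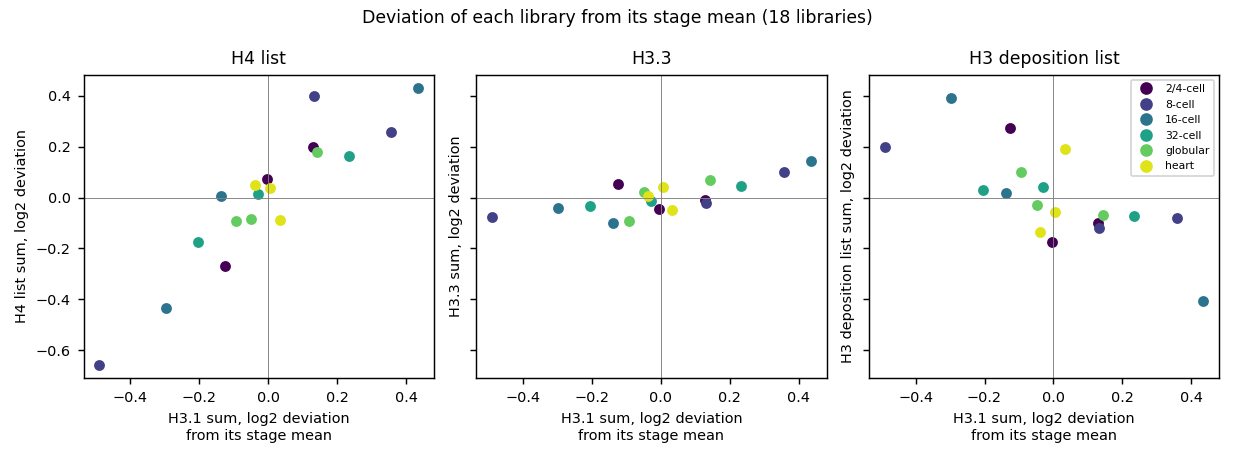
Deviation of each library from its stage mean, on the log2 scale, for the H3.1 sum (x axis) against the summed H4 genes, the H3.3 sum and the summed H3 deposition genes (y axes, same limits). Each point is 1 of 18 libraries, coloured by stage. H4 follows H3.1 with r of 0.917. H3.3 spreads little but follows H3.1 with r of 0.736, and the deposition genes run the other way with r of -0.738.

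Transcript length moved with the same deviations, a measure chosen after the values were seen. Genes with transcripts up to 1000 bases took 24.8% to 45.1% of the TPM of tested genes with a known length, histone genes left out. This share was highest in 16-cell replicate 3 and had r of 0.607 with the H3.1 deviation. For genes over 2000 bases r of the share was -0.706. The median r of single genes was 0.209 in the first class and -0.316 in the second. The longest annotated transcripts have 704 to 833 bases for the H3.1 genes and 818 for HTR8, against 1036 for HTR4 and 1289 for HTR5. The part of transcript length in the spread of H3.1 was not tested.

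Over all 18 libraries, the 5 genes most like the H3.1 sum in log2(TPM + 1) were all histone genes, out of 13140 compared. They were HTA10, a canonical H2A (r = 0.969), AT3G46320 and AT5G59970, which are H4 genes (r = 0.904 and 0.901), HTB1, an H2B (r = 0.876), and H2AXA, an H2A.X (r = 0.868). The H3.3 sum was most like DCP2, an mRNA decapping enzyme (r = 0.862), AT1G27461 (r = 0.804), VPS46.2 (r = 0.803), HTA10 (r = 0.793) and UBC36 (r = 0.786). CENH3 was most like HMGB2, a chromatin protein of the HMG box type (r = 0.809), AT3G07090 (r = 0.789), AT3G14200 (r = 0.788), HSP90.1, a heat shock protein (r = 0.783), and AT1G15860 (r = 0.782). These values are descriptions over libraries that share their stage and scaling.

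Genes for proteins that place or read H3 had their calls mostly in heart against 2/4-cell. There the median of all genes was 0.46, and 34.5% of all genes were called higher and 12.3% lower. These calls and those of the lists below are on TPM as deposited, and were not checked under other scalings. Of 11 genes of H3 deposition, 3 were higher and 0 lower, a share no larger than that of all genes, and the median log2 change of the list was 0.12. These 3 belong to the HIRA complex of H3.3 placement: HIRA with 3.97 ± 2.70 and 12.9 ± 3.62 TPM (log2 change 1.61), UBN1 (AT1G21610) with 18.5 ± 4.38 and 41.7 ± 5.26 TPM (1.15) and CABIN1 (AT4G32820) with 3.52 ± 1.35 and 8.47 ± 2.05 TPM (1.09). Their limma adjusted p was 0.00438, 0.00252 and 0.0236. UBN2 (AT1G77310), the paralogue of UBN1 and named after its values were seen, had 25.3 ± 3.16 and 16.2 ± 2.002 TPM, with no overlap, and was not called (log2 change -0.62, limma adjusted p = 0.114). MSI1, a CAF-1 subunit with 139 ± 22.2 and 152 ± 33.9 TPM, and AT4G37210, with 148 ± 40.8 and 121 ± 24.8 TPM, were not called. Of the 3 genes that modify or read H3.1, the methyltransferase gene ATXR6 rose from the 2/4-cell to the 8-cell stage, from 31.7 ± 18.3 to 82.9 ± 31.7 TPM (log2 change 1.48, limma adjusted p = 0.00913). In heart against 2/4-cell ATXR5 and ATXR6 were higher by 0.92 and 0.86 (adjusted p = 0.0158 and 0.0453). TSK, which binds newly placed H3.1, had 14.2 ± 2.00 and 12.6 ± 3.62 TPM and was not called.

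Of 4 centromere and kinetochore genes, 2 were higher at the heart than at the 2/4-cell stage and 0 lower, beside the 34.5% of all genes called higher, and the list median of 0.39 was below the 0.46 of all genes. KNL2 (AT5G02520), which takes part in CENH3 loading, went from 5.26 ± 1.45 to 10.7 ± 2.04 TPM (log2 change 0.91, limma adjusted p = 0.0354). MIS12, a kinetochore protein, went from 31.6 ± 8.60 to 47.2 ± 1.70 TPM (0.60, adjusted p = 0.0278). CENP-C, which binds CENH3 nucleosomes, had 36.7 ± 10.9 and 41.8 ± 12.6 TPM and was not called. CENH3 itself fell in this comparison.

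Among the other H3 genes HTR11 (AT5G65350) had 11.9 ± 9.05 to 33.4 ± 14.4 TPM in the stage means, and AT1G13370, AT1G75600 and AT5G12910 at most 5.16 TPM. AT1G75600 fell from the 2/4-cell to the 8-cell stage, from 5.16 ± 3.64 to 0.624 ± 0.910 TPM (limma adjusted p = 0.049997, just under the threshold). The counts that follow are of heart against 2/4-cell, where 34.5% of all genes were called higher and 12.3% lower. They are no result about histone genes. Of 8 H4 genes, 1 was higher at the heart than at the 2/4-cell stage and 0 lower, AT1G07660 with 126 ± 18.4 and 200 ± 9.10 TPM (limma adjusted p = 0.00782). Of 10 H2B genes tested, 2 were higher and 2 lower. Of 8 H2A variant genes, 1 was higher, the H2A.W gene HTA12, from 1.81 ± 0.902 to 11.1 ± 2.10 TPM (log2 change 2.14, limma adjusted p = 0.000272). Of 3 linker histone H1 genes, AT1G06760 was higher, from 307 ± 65.1 to 446 ± 56.0 TPM (adjusted p = 0.0325), and HIS1-3, a stress-induced form, was lower, from 4.88 ± 1.42 to 0.160 ± 0.143 TPM (adjusted p = 2.995e-05).

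In the same comparison 6 of 16 S phase genes were higher and 0 lower, a share near the 34.5% of all genes, with a list median of 0.63. They were ORC1A and MCM2 to MCM6 of the replication licensing machinery, among them MCM3 with a log2 change of 1.35 (limma adjusted p = 0.00563). Of 12 mitosis genes 0 were higher and 2 lower, where 12.3% of all genes were lower. These were the kinase gene CDKB2;2 with a log2 change of -1.21 and the cyclin gene CYCB1;1 with -0.75 (limma adjusted p = 0.000336 and 0.0350). Of the 84 genes on these lists, 82 were tested. Their calls between consecutive stages are given beside the share of all genes called, and are no result about the lists. In 8-cell against 2/4-cell embryos 1 was higher, ATXR6, and 4 were lower, AT1G75600, RAT5 (a canonical H2A), HIS1-3 and CDKB2;2. Of all genes, 8.77% were called in that comparison and 5% were called lower. From the 16-cell to the 32-cell stage AT1G06760 was higher, from 213 ± 26.8 to 398 ± 49.7 TPM (log2 change 0.90, limma adjusted p = 0.0114). In that step 5.37% of all genes were called higher. In 16-cell against 8-cell, globular against 32-cell and heart against globular 0 were called by limma, where 1.56%, 1.94% and 0.578% of all genes were. At an unadjusted p under 0.05 there were 4, 9 and 0, with no share of all genes given here.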

How the data were processed

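The submitters' processing notes name Trim Galore 0.6.6, kallisto 0.44.0 and the TAIR10 build. Per the labels' protocols, a Dynabeads mRNA DIRECT micro kit and a SMARTer Ultra Low RNA kit were used. The authors deposited a table of gene TPM, and the step from transcripts to genes is not given in the sources used here. TPM are shares of a library, so a rise of some genes lowers others.

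The members and gene lists were chosen with earlier results of these data known. Stage means of log2(TPM + 1) over the 18 libraries were modelled in limma 3.58.1 (R 4.3.3) with an intensity trend, and a gene was tested if 3 or more libraries had at least 1 TPM. Tests were two-sided, adjusted over all 18338 genes in each comparison. Fold changes on the TPM + 1 scale understate those of low genes. The script was tested on simulated data. Nothing states that replicates came from separate plants, so a p value covers the spread between these libraries only, which may be technical. Sums and shares over genes have no test. From each list beyond the members, at most 4 called genes (by size of change) and 2 uncalled genes (by mean TPM) were named. MCM4 and MCM5 were named beyond that rule, after their values were seen.

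Sequences come from RefSeq TAIR10.1 with its own coordinates, and protein identity from translated coding sequences. Alternatives changed the scaling, pseudocount, filter, weights, replicate block, stages in the fit or library set. They were read for the H3 members only.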

Additional observations from a re-analysis of the deposited data

How the results depend on the processing

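Of 54 changes tested in the H3 genes, the fall of CENH3 from the 2/4-cell to the heart stage was the called one that kept its direction and its side of the threshold under all 27 alternatives. Depth is unknown, 3 libraries a stage limit the precision, and TPM are relative values. The cause of each shift below was not tested.

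In 8-cell against 2/4-cell, where 1 gene was called, 0 were called under median-ratio scaling, a pseudocount of 5, the 5 TPM filter, library weights, the replicate block or a fit of only these stages, and 0 to 1 without single libraries. In 32-cell against 16-cell, with 2 called, 0 were under median-ratio scaling or in a fit of only these stages, and 0 to 2 without single libraries. In globular against 32-cell, with 0 called, 4 were with library weights and 1 with quantile normalization or only these stages, and 0 to 1 without single libraries. In heart against globular, with 0 called, 1 was with library weights, HTR2. In heart against 2/4-cell, with 1 called, 4 were under median-ratio scaling and 3 with quantile normalization. The F test called 3 genes under median-ratio scaling, 8 with quantile normalization and 3 to 7 without single libraries, against 5. The shares of all genes called in these alternative fits are not given here, so the counts are no result about H3 genes.

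Under median-ratio scaling the H3.1 sum was 2661 TPM at the 2/4-cell, 2355 at the globular and 1805 at the heart stage. The H3.3 sum was then 2452 TPM at the 2/4-cell, 2402 at the 8-cell, 2041 at the 16-cell, 1972 at the globular and 1773 at the heart stage. With quantile normalization H3.3 was 2044 TPM at the 2/4-cell, 1990 at the 8-cell, 2509 at the globular and 2533 at the heart stage, and H3.1 was 2405 TPM at the heart stage. Without the most abundant gene of each class the H3.1 share was 59.4%, 59.3%, 60.1%, 58.0%, 59.4% and 56.7% from the 2/4-cell to the heart stage.

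The stages share replicate numbers, and the labels do not say whether these numbers pair the libraries. Over all genes, deviations of the 45 same-numbered pairs of libraries correlated at -0.139 to 0.210, with 9 of 45 over 0.1, against 7 of 90 for different numbers. With the replicate number as a block, 0, 0, 2, 0, 0 and 1 genes were called in the 5 consecutive comparisons and in heart against 2/4-cell, and 6 by the F test.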
